A study of Mus musculus with 20 samples.

Results

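CTCF is the zinc-finger protein of vertebrate insulators, and its gene is Ctcf. It binds a long, conserved DNA sequence, halts the cohesin ring as cohesin extrudes chromatin loops, and so marks the borders of contact domains and the anchors of many loops between enhancers and promoters. CTCFL, also called BORIS, is a paralogue with a nearly identical recognition sequence that is known mainly from the male germ line. Because CTCF sits on its sites for long enough to shield DNA, its sites leave a clear footprint in ATAC-seq, an assay in which a transposase cuts open chromatin.

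The members described here are the 5 of 1205 motif rows of the deposited footprint table that carry the name CTCF or CTCFL, and the 1 of 32120 consensus ATAC regions annotated to Ctcf. They were chosen by name, with their measured scores already known, so their values are given as a description with no test. No consensus region had Ctcfl as its annotated gene. To carry the motif results to positions in the genome, the 1594 consensus regions that hold a CTCF core were described as well. The core is a 12-base consensus within the CTCF sequence, and the sites counted in the footprint table are a separate, wider set.

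All cells were neocortical cells with GFP signal, the progeny of Nkx2.1-expressing radial glia, sorted from mice at postnatal day 7 or 8. The labels of the ATAC footprint scores give day 7. WT mice carried Nkx2.1-Cre, and Tcf4 cKO mice were Tcf4 f/f; Nkx2.1-Cre, so that Tcf4, an E protein of the basic helix-loop-helix class, was deleted in radial glia of the ventral telencephalon that expressed the driver and in their progeny. Both genotypes carried the Ai3 EYFP reporter, whose fluorescence was the sorting gate. ATAC-seq and Cut&Tag for H3K4me1, H3K27ac and H3K27me3 had 2 libraries of 50000 cells per genotype, and Tcf4 itself was profiled in 2 Cut&Tag libraries of 200000 nuclei from a Tcf4-tag line, in which Cre adds a Flag/HA tag to the C-terminus of the endogenous protein. The labels name replicates but not the animals behind them, so the spread between libraries may be technical.

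Peak numbers, the only measure of depth in the files, ran from 54162 to 72308 in the ATAC libraries, from 22026 to 28413 for H3K27ac, from 51510 to 72790 for H3K4me1, from 15085 to 19182 for H3K27me3, and were 28606 and 16834 for Tcf4. Of 7 oligodendrocyte lineage genes 5 had an ATAC peak on the promoter in the libraries of both genotypes, as did 4 or 5 of 6 astrocyte genes, 4 of 7 interneuron genes, 1 of 4 microglial genes, 2 of 3 endothelial genes and 1 of 3 projection neuron genes. Apart from the astrocyte genes, these counts were the same in all 4 libraries. With H3K27ac, 2 or 3 oligodendrocyte genes and 2 astrocyte genes had a promoter peak in every library, the interneuron genes had between 0 and 3, 1 endothelial gene had one, and no microglial or projection neuron gene did. Fewer cells of a type and less signal per cell cannot be told apart in such bulk libraries.

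The sequence behind these results is shown first. Of the 1653 core sites in the consensus regions, the commonest forms of the core are printed here, to show how few letters vary; capitals mark the 12 bases of the core.
Core form a: CCAGCAGAGGGC
Core form b: CCACCAGGGGGC
Core form c: CCAGCAGGGGGC
Core form d: CCACTAGGTGGC
Form a made up 190 sites (11.5%), form b 175 (10.6%), form c 158 (9.56%) and form d 131 (7.93%). All 16 forms that the consensus allows occurred, and the rarest had 24 sites (1.45%).

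Sites from named regions follow, each with 9 flanking bases on either side in lower case and the core in capitals, read on the strand given, in GRCm38. The Stag1 promoter holds a pair of cores and was the most accessible core region with a named gene in WT. Zzz3 and Fkbp2 were the next most accessible. Negr1 was among the 5 with the highest gains of mean accessibility in Tcf4 cKO of the core regions selected as described below. Thbs4 had the lowest value. Of the imprinted genes examined below, only Rasgrf1 had a region with a core.
Stag1 first, chr9:100643564-100643593, plus strand: gcagcgcggCCAGCAGAGGGCggtcgggac
Stag1 second, chr9:100643622-100643651, plus strand: tggaaaatgCCACCAGATGGCgggttagga
Zzz3, chr3:152395896-152395925, plus strand: ccgcggccaCCAGTAGGTGGCgcgccgagc
Fkbp2, chr19:6979607-6979636, plus strand: cacacatctCCACTAGGTGGCtctgaggag
Negr1, chr3:156644143-156644172, minus strand: cttcactcaCCACTAGAGGGCaatgacact
Thbs4, chr13:92703604-92703633, minus strand: ctcacacccCCAGCAGGTGGCcacccagtc
Rasgrf1, chr9:89949394-89949423, minus strand: aatcagatcCCAGCAGGGGGCtcagagtgg
The first Stag1 site has form a, the Fkbp2 site form d and the Rasgrf1 site form c.

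The bases after the core were not part of the search. Of the 1653 sites, 1235 (74.7%) were followed by a purine and then C or G, against the 25% that these 2 positions would give if the 4 letters were equal. The base right after the core was A in 52.0% of sites. In 621 sites (37.6%) it was G, which completes a CpG, the dinucleotide at which DNA is methylated. The sites lay on the plus strand 801 times and on the minus strand 852 times, and 96 of them (5.81%) were in sequence that the reference marks as repeats.

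CTCF footprints were among the rows with the highest gains in Tcf4 cKO. The footprint score of a motif is the mean, over all its sites in open regions, of a measure of depleted cutting flanked by accessible DNA, and each genotype has 1 merged alignment, so there is no replicate behind it. The vertebrate CTCF row, matrix MA0139.1, had 37585 sites. Its mean score was 0.415 in WT and 0.442 in Tcf4 cKO, a log2 ratio of 0.089. That ratio was the third of the 1205 motifs in descending order. The number of its sites called bound went from 7867 in WT, or 20.9% of its sites, to 8767 in Tcf4 cKO, or 23.3%. The gain of 900 bound sites was the highest of all 1205 rows.

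The 2 other CTCF matrices gave nearly the same picture. MA1929.1 had 36175 sites, a score of 0.408 in WT and 0.428 in Tcf4 cKO, and a log2 ratio of 0.071, the fifth in order. Its bound sites went from 7522 to 8189. MA1930.1 had 31889 sites, a score of 0.395 in WT and 0.414 in Tcf4 cKO, and a log2 ratio of 0.069, the seventh in order. Its bound sites went from 6320 to 6834. The 3 matrices describe 1 protein and count overlapping sites, so they are not 3 separate observations.

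The CTCFL rows stood higher in both genotypes and changed less. MA1102.1 had 38790 sites, a score of 0.519 in WT and 0.536 in Tcf4 cKO, and a log2 ratio of 0.046, the 20th in order. MA1102.2 had 35094 sites, a score of 0.575 in WT and 0.587 in Tcf4 cKO, and a log2 ratio of 0.030, the 103rd. Their bound sites went from 11283 to 11862 and from 11678 to 12116. These counts belong to the letters of the matrix and do not say which of the paralogues was on the DNA.

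All 5 rows were higher in Tcf4 cKO, as were 561 of all 1205. The median log2 ratio was 0.069 over the 5 rows and -0.003 over all motifs. The changes were small on the scale of the table. After centring on the median motif, 0 of the 5 rows went past 0.1 in size, and so did 0 of 1205 motifs in the upward direction (0%). In the downward direction 18 of 1205 (1.49%) did, and the lowest uncentred log2 ratio was -0.150. In the plot of log2 ratio against WT score, the CTCF points lie near the top of the cloud, together with those of THAP11 and ZNF76.

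**Figure D1:**
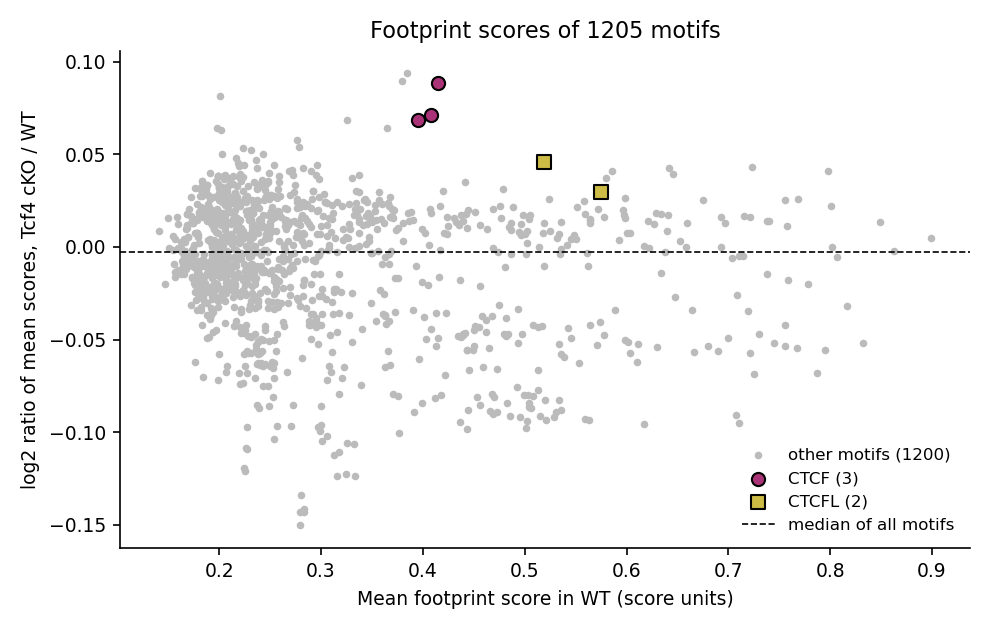
Log2 ratio of mean footprint scores, Tcf4 cKO over WT (y axis), against the mean score in WT (x axis, score units) for 1205 motifs, 1 point per motif, with the median of all motifs as a dashed line. The 3 CTCF points lie between 0.069 and 0.089 and the 2 CTCFL points at 0.030 and 0.046, all above the median of -0.003.

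Only 2 rows had a ratio above that of MA0139.1, and both are matrices of THAP11, a zinc-finger factor of housekeeping promoters. Thap11 MA1573.2 had a log2 ratio of 0.094 and THAP11 MA1573.1 one of 0.089, but their bound sites went only from 3055 to 3174 and from 3543 to 3635. ZNF76, a zinc-finger factor, stood between the CTCF rows at 0.070, with 4080 bound sites in WT and 4220 in Tcf4 cKO. These 3 motifs were picked after their values were seen. Bound sites were more numerous in Tcf4 cKO by 11.4% for MA0139.1 and by 3.90% and 2.60% for the THAP11 rows.

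The motifs nearest to MA0139.1 in level, measured as the distance in the log2 scores of both genotypes, had smaller log2 ratios, 0.030, 0.016 and 0.011 in the order given. Dux, a homeodomain factor, scored 0.419 in WT and 0.428 in Tcf4 cKO, ZNF530 scored 0.424 and 0.428, and GLIS1 scored 0.425 and 0.428. Their bound sites went from 2059 to 2056, from 14420 to 14728 and from 1885 to 1896. The CTCF rows were not the strongest footprints in these cells. The 5 highest WT scores among the other motifs were those of NRF1 MA0506.1 with 0.899, KLF15 with 0.862, Nrf1 MA0506.2 with 0.849, ELK3 with 0.832 and TCFL5 with 0.817. NRF1 is an activator of many housekeeping promoters. Their log2 ratios ran from -0.052 for ELK3 to 0.014 for Nrf1 MA0506.2, and CTCF MA0139.1 ranked 227th in WT score.

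The Ctcf gene itself had 1 consensus region, the promoter, at chr8:105635864-105637987 in GRCm38. It is 2124 bp wide, covers the start of Ctcf on the plus strand, and also overlaps Gm5914, an antisense long noncoding RNA gene, so its signal cannot be assigned to either gene. The authors' mean log2 accessibility was 9.65 in WT and 9.55 in Tcf4 cKO, a difference of -0.11, with the median of 13909 promoter regions also at -0.11. The WT level was above that of 93.4% of promoter regions. This level is a mean of normalized reads over the whole region with no stated correction for width. Levels of regions of unlike width are therefore not like for like. The promoter was thus open in both genotypes and its difference was at the median of promoters.

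Peak by peak, the libraries said the same. The strongest ATAC peak on the Ctcf promoter had a fold enrichment over local background of 7.31 and 6.70 in the WT libraries and of 6.51 and 7.42 in the Tcf4 cKO libraries. The groups overlapped. After each library was centred on its median, the log2 difference was 0.08 with a standard error of 0.16. H3K27ac, the mark of active promoters and enhancers, had fold enrichments of 3.84 and 4.09 in WT and of 3.80 and 3.71 in Tcf4 cKO. Both Tcf4 cKO values were below both WT values, and the centred log2 difference was -0.05 with a standard error of 0.17, smaller than its error.

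H3K4me1, which flanks active promoters and marks enhancers, had a peak on the Ctcf promoter region only in the second WT library, at 3.03-fold. H3K27me3, the Polycomb mark, had none in its 4 libraries. Tcf4 had a peak in both libraries of the Tcf4-tag line, at 6.50-fold and 8.21-fold. Those enrichments were above those of 78.6% and 95.6% of the promoter regions with a Tcf4 peak in the same library. The ATAC enrichments were above those of 22.5% to 39.3% of promoter regions with a peak in the same library. Enrichment and mean accessibility are thus different scales: the enrichment is relative to the surroundings of a peak, and its highest value was between 24.5 and 25.2 in each ATAC list, so changes at strong peaks may be compressed.

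**Figure D2:**
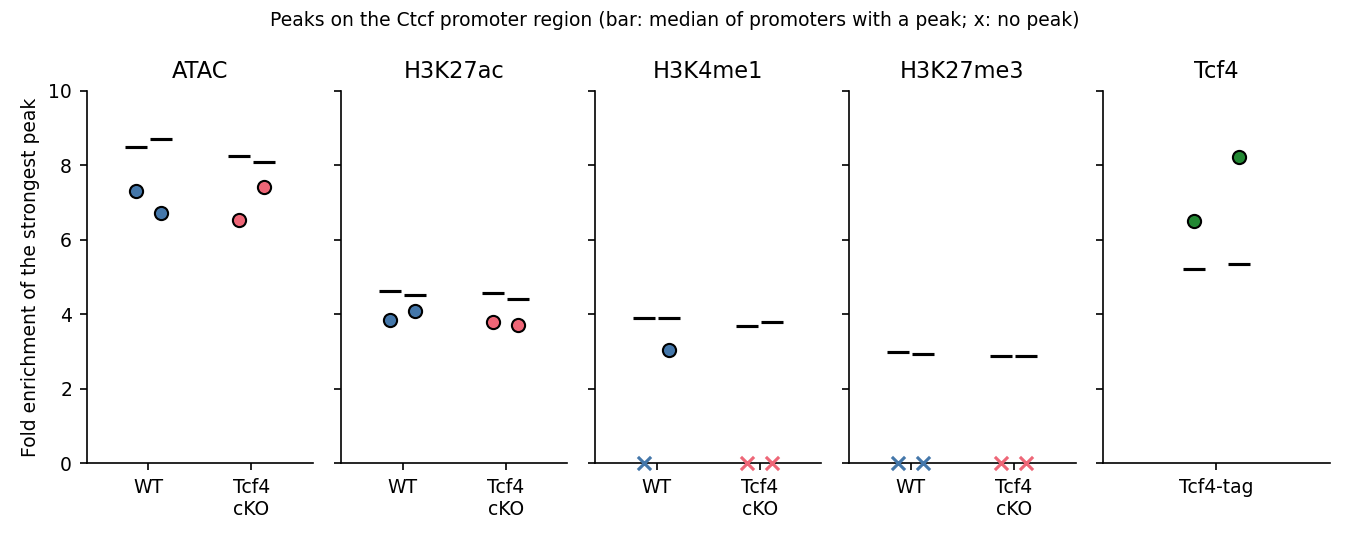
Fold enrichment of the strongest peak on the Ctcf promoter region (y axis) in each library, by assay and genotype, with a cross at 0 where a library had no peak and a bar for the median of all promoter regions with a peak in that library. ATAC and H3K27ac points lie below the bars in every library of both genotypes, and the Tcf4 points at 6.50 and 8.21 lie above theirs.

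The RefSeq promoter of Ctcf, chr8:105636288-105636587 in GRCm38.p6 on the plus strand, is shown because a Tcf4 peak lay on it. It runs from 250 bases before the start to 50 after, and capitals mark the 116 bases under the peak of the second Tcf4 library.
Ctcf promoter: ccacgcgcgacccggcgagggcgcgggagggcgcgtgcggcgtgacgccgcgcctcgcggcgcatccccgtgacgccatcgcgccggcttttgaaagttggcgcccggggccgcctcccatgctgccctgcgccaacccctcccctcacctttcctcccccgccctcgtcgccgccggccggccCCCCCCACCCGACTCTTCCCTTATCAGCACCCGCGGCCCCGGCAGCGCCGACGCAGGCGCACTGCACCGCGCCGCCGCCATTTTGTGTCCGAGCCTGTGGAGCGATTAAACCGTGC
Of these 300 bases 75.3% were G or C. The window held 0 matches to CANNTG, the E-box of basic helix-loop-helix factors, on either strand. The peak of the second Tcf4 library runs on to 105636872, and that of the first spans 105635953-105637327. CANNTG was not searched in the parts of these peaks beyond the window. Of 32851 RefSeq promoters of this length, 72.3% held at least 1. It also held no CTCF core, even with 1 mismatch, and nor did the whole consensus region. A core was present in 183 of the 32851 promoters (0.557%), and in 1421 (4.33%) with 1 mismatch allowed.

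Over the whole Ctcf gene, chr8:105636568-105682922, few peaks were added to those of the promoter. Within 1000 bp of the gene, promoter peaks included, each ATAC library had 1 or 2 peaks. Each H3K27ac library had 1 or 2, as many as on the promoter region. H3K4me1 had 1 peak in each Tcf4 cKO library, in which the promoter region had none. Ctcfl, chr2:173093609-173119525 on the minus strand, had 1 or 2 ATAC peaks per library, no H3K27ac peak in any of the 4 libraries and no Tcf4 peak in either. H3K27me3 had 2 peaks there in the first Tcf4 cKO library and none in the other 3.

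CTCF acts with cohesin, and the promoters of a list of 24 genes of cohesin, its loaders and regulators, and proteins that bind with CTCF were compared with all promoters. Of these genes 20 had a promoter region, 23 regions in all. None went past 0.5 in mean accessibility in either direction, and of promoters without a core only 1.96% did so upward and 3.24% downward. Their median difference was -0.15, beside -0.11 for all promoters. The lowest values were -0.40 at Esco1, which acetylates cohesin, -0.35 at Pds5a, a cohesin regulator, and -0.33 at Yy1, a zinc-finger factor that also bridges enhancers and promoters. The highest were 0.16 at Bptf, a chromatin remodeller subunit, and 0.12 at both Esco2, a cohesin acetyltransferase, and Adnp, a zinc-finger protein that competes with CTCF at some sites. Rad21, the cohesin kleisin subunit, had -0.07, and Smc3, a cohesin ATPase subunit, had -0.10.

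In the per-library fit 1 of the 23 promoter regions had an adjusted p under 0.05 in ATAC, the first of 2 Adnp regions, which was lower in Tcf4 cKO, where the fit called 1.50% of all regions lower. The call was lost without centring and without either WT library, as all ATAC calls were. Its fold enrichments were 8.33 and 7.71 in WT and 3.95 and 3.96 in Tcf4 cKO. The neighbouring Adnp region had the very same 2 WT values, because in each WT library the strong peak of that region reached into the first one, while the Tcf4 cKO peaks ended before it. The mean accessibility of the first region was 7.49 in WT and 7.60 in Tcf4 cKO, so the reads did not show that drop. Of the 11 other regions of these genes, 1 went past 0.5, a Stag1 intron at -0.53. Outside promoters 20.9% of regions without a core passed downward and 13.4% upward.

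Stag1, a cohesin subunit, was the 1 gene of the list with a core in its promoter. That region, chr9:100642601-100644768, holds the pair of sites printed above and had the highest WT mean accessibility of all core regions with a named gene, 10.46, with 10.30 in Tcf4 cKO. Its ATAC fold enrichments were 7.81 and 6.90 in WT and 8.50 and 7.64 in Tcf4 cKO. It had peaks of all 3 histone marks in every library and of Tcf4 in both. Zzz3, a subunit of a histone acetyltransferase complex, had 10.39 in WT and 10.01 in Tcf4 cKO at its promoter, and Fkbp2, an immunophilin of the endoplasmic reticulum, 10.30 and 10.17.

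A CTCF core was found in 1594 of 32120 consensus regions, or 4.96% (95% Wilson interval 4.73 to 5.21, counting error only). The same string of letters reversed, which has the same composition and is not a CTCF sequence, was in 32 regions, or 0.0996%. It begins with a CpG, which no form of the core holds, so the shares of the core and of the reversed string are not like for like. With 1 mismatch allowed the core was in 6953 regions (21.6%) and the reversed string in 1199 (3.73%). Nearly all core regions, 1555, had 1 core, 36 had 2, and 3 had more. Those 3 were singled out after the data were seen: an intron region annotated to Mir7038 with 15 cores, one at Sec22c with 7, and an intergenic one near Gapt with 4. Their differences in mean accessibility were -0.10, 0.08 and 0.20.

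Core regions lay away from promoters. Outside promoters 6.78% of regions held a core (interval 6.42 to 7.15), and among promoters 2.59% did (2.34 to 2.87). Of the core regions 41.7% were intergenic, 26.0% intronic, 22.6% promoters and 9.66% exonic. Regions without a core were 25.4% intergenic, 24.7% intronic, 44.4% promoters and 5.51% exonic. Core regions were also narrower, with a median width of 814 bp against 978.5 bp. Their median WT level was 6.23 against 7.11, on a scale of reads over whole regions with no stated correction for width.

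The core sat under the summit of the ATAC peak. In the first WT library the median distance from core to summit was 43.5 bp, in the second 41.5 bp, and in the Tcf4 cKO libraries 38.5 and 39.5 bp. The share of cores within 50 bp of the summit was 53.2% and 55.6% in WT and 57.7% and 56.0% in Tcf4 cKO, with means of 54.4% ± 1.69 and 56.9% ± 1.22 (SD, n = 2). A window of that size takes up 12.91% to 13.00% of the region length on average. Both Tcf4 cKO libraries were above both WT libraries. The counting intervals were 50.8 to 55.7 and 53.2 to 58.0 in WT and 55.3 to 60.1 and 53.6 to 58.4 in Tcf4 cKO, and with 2 libraries against 2 an exact permutation test cannot give a two-sided p below 0.33. The reversed string had between 0 and 2 of its 31 or 32 sites this close in each library. Its regions were longer, and the window takes up 7.71% to 7.82% of their length on average.

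**Figure D3:**
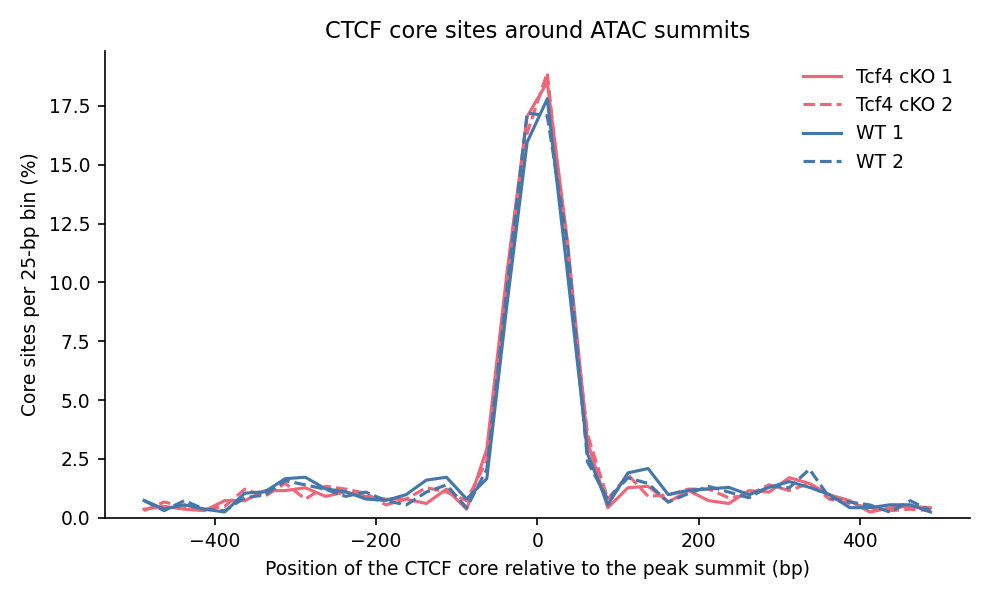
Position of CTCF cores relative to the summit of the strongest ATAC peak on their region (x axis, bp) as the percentage of core sites per 25-bp bin (y axis), 1 line per ATAC library of WT and Tcf4 cKO. The 4 lines overlie each other, with a single peak at the summit that matches the 53.2% to 57.7% of cores within 50 bp.

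Mean accessibility of the core regions comes from the same reads as the footprints, so it is a further description and not separate evidence. The median difference, Tcf4 cKO minus WT, was 0.08 log2 in core regions and -0.10 in regions without a core, and 60.4% of core regions were above 0 against 35.3% of the others. Past 0.5, core regions numbered 148 (9.29%) in the upward direction, where 8.38% of all regions passed, and 48 (3.01%) in the downward direction, where 12.6% did. Outside promoters the upward share was 11.2% with a core and 13.4% without, in the least accessible quartile 16.04% and 20.53%, and in the next 6.82% and 10.7%.

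The difference depended on where the regions lay and on how open they were. Outside promoters the median was 0.13 with a core and -0.08 without, and at promoters it was -0.05 and -0.11. In the least accessible quartile of all regions it was 0.20 with a core and -0.03 without, in the next 0.11 and -0.04, in the third -0.02 and -0.09, and in the most accessible -0.11 and -0.15. The median of core regions was above that of the others in each quartile, while its sign turned from the second to the third. Core regions with a core within 50 bp of the summit in all 4 libraries, 468 in number, had a median of 0.16. The other 1126 core regions, with a core farther away or no ATAC peak in at least 1 library, had 0.05. Regions with the core only when 1 mismatch is allowed had -0.05, and the 32 regions with the reversed string had -0.15.

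**Figure D4:**
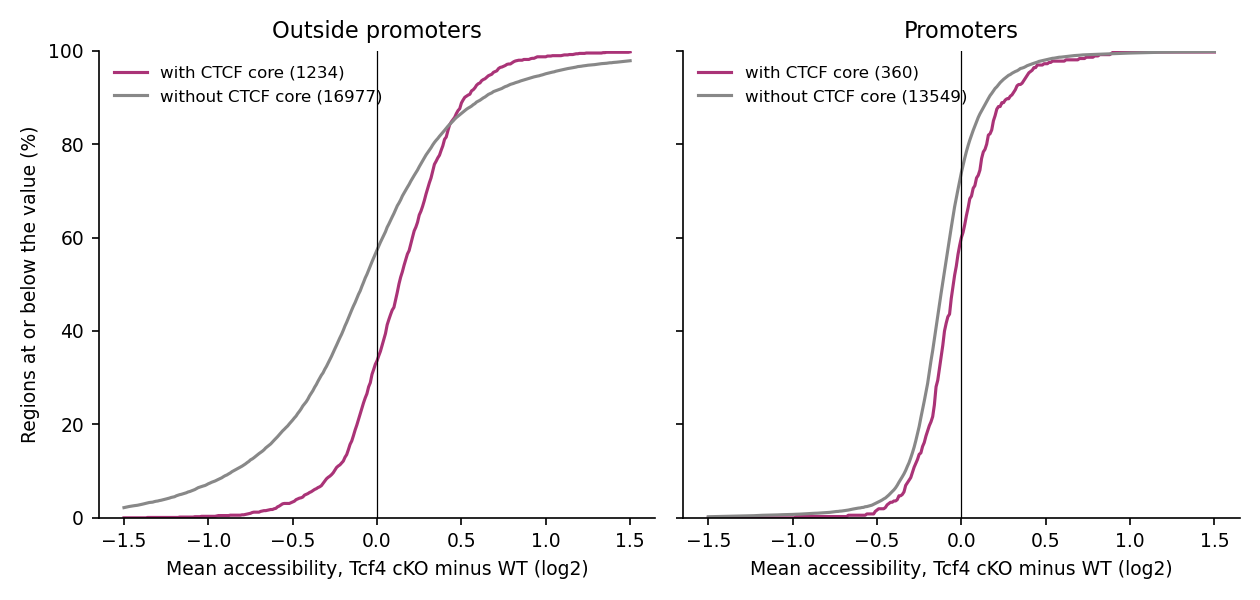
Cumulative percentage of consensus regions (y axis) at or below each difference in mean accessibility, Tcf4 cKO minus WT (x axis, log2), for regions with and without a CTCF core, outside promoters and at promoters. Outside promoters the curve of core regions is steeper and lies to the right at negative values, with 3.40% of them below -0.5 against 20.9% of the others.

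The letters of the core were also compared. Among regions with a single core, the median difference was 0.11 with C and 0.05 with G at the fourth base, 0.08 with either C or T at the fifth, and 0.10 with A and 0.07 with G at the eighth. By the base after the core it was 0.12 with A (793 regions), 0.06 with G (600), -0.03 with C (76) and -0.01 with T (86). Of these regions 14.8%, 29.3%, 44.7% and 32.6% were promoters. With the core extended by a purine and then C or G it was 0.09, and 0.06 otherwise.

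Per library, ATAC enrichment gave the same order without the pooled means. The median log2 fold enrichment of core regions minus that of the others was -0.163 and -0.099 in the WT libraries and -0.030 and -0.070 in the Tcf4 cKO libraries, over 1533 core regions with a peak in all 4. Outside promoters it was -0.083 and -0.076 in WT and 0.044 and -0.013 in Tcf4 cKO. The genotypes did not overlap in either set. With 2 libraries against 2, an exact permutation test cannot give a two-sided p below 0.33. The values come from the same libraries as the pooled means and are not separate evidence. In limma with Benjamini-Hochberg adjustment over 30379 regions, 45 core regions had higher and 4 had lower ATAC enrichment in Tcf4 cKO. The same fit called 442 of all regions higher (1.45%) and 455 lower (1.50%). Without either of the WT libraries, or without centring the libraries, no region was called, and nothing is read from these counts.

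Single core regions with large differences were named by a rule that asked for a peak in each of the 2 libraries of the genotype with the higher mean. An intron of Negr1, a neuronal adhesion gene, had a mean log2 accessibility of 3.37 in WT and 5.30 in Tcf4 cKO. Its ATAC peaks had a fold enrichment of 3.87 in the second WT library and of 9.41 and 9.69 in Tcf4 cKO, with none in the first WT library. The region was selected on this difference, so the values only describe it.

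A region 67116 bp from the start of Lsm6, an RNA-binding gene, had 5.46 in WT and 7.12 in Tcf4 cKO, and fold enrichments of 5.80 and 3.80 against 7.14 and 6.70. The Nhsl1 promoter had 5.68 and 7.22, but its fold enrichments of 4.42 and 5.14 against 5.28 and 4.55 overlapped. Man2b2, a lysosomal mannosidase gene, had an intronic region at 4.73 and 6.23. No Tcf4 peak lay on the regions of Negr1, Lsm6 and Man2b2, and the Nhsl1 promoter had one in 1 library.

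In the other direction stood an intron of Thbs4, a thrombospondin gene, with 8.29 in WT and 6.93 in Tcf4 cKO. Its ATAC fold enrichments were 10.3 and 9.87 in WT and 6.01 and 6.84 in Tcf4 cKO. It had H3K4me1 in 4 libraries, H3K27ac in 3 and Tcf4 in both. The next were a region near Gm26489 with 5.92 and 4.75, the Gm25148 promoter with 6.19 and 5.21, a region near Mir6381 with 5.37 and 4.42, and one near Mrpl19 with 5.81 and 4.87. Peaks of Tcf4 lay on the Gm25148 region in both libraries and on the Mir6381 region in 1.

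Imprinted loci are a textbook setting of CTCF, which binds the unmethylated allele of their control regions. Of 9 genes of such loci 8 had a consensus region annotated to them, 14 regions in all, and 1 region held a core. These regions were taken by gene annotation and were not matched to the control regions. It was the intron of Rasgrf1 at chr9:89948604-89949504, with 7.24 in WT and 6.96 in Tcf4 cKO, and fold enrichments of 8.77 and 10.6 against 7.63 and 8.53. With 1 mismatch allowed 5 of the 14 regions held a core. Named after their values were seen, the regions past 0.5 were an intergenic Rasgrf1 region at 2.47, a Kcnq1 intron at -0.72 and the Meg3 promoter at -0.53, none with a core.

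Histone marks, which the footprints did not use, differed between regions with and without a core. Outside promoters, 1234 core regions were compared with 16977 others. An H3K27ac peak lay on 24.3% and 18.96% of core regions in the WT libraries and on 18.7% and 13.5% in the Tcf4 cKO libraries. The other regions had one in 46.9%, 39.2%, 40.6% and 32.8%. The core regions were lower in each of the 4 libraries, with a mean difference of -21.0 ± 1.50 percentage points (SD, n = 4), and the exact permutation test over libraries gave a two-sided p of 0.125, the smallest that 4 libraries allow.

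In H3K27ac the core regions stood at -21.4 ± 1.68 points among WT libraries and -20.6 ± 1.80 among those of Tcf4 cKO (SD, n = 2). The mean shares were 21.64% with a core and 43.05% without in WT, and 16.13% and 36.71% in Tcf4 cKO. Whether the shortfall differed between genotypes was not tested. Core regions also had lower mean accessibility, and the contrast was smaller where that level was highest. Within quartiles of mean accessibility, outside promoters, an H3K27ac peak lay on a mean of 6.58% of core regions and 19.4% of others in the least accessible quartile, on 15.9% and 40.6% in the next, on 50.5% and 65.5% in the third and on 81.1% and 86.0% in the most accessible. The last of these held 37 core regions.

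H3K4me1 peaks were less frequent on core regions over all regions outside promoters, but not in each quartile of accessibility. They lay on 51.6% and 65.0% of core regions in WT and on 72.0% and 65.9% in Tcf4 cKO, beside 64.7%, 71.0%, 76.8% and 73.8% of the others. The difference was -7.97 ± 3.63 points (SD, n = 4; exact permutation p = 0.125). By rising quartile the mean shares were 52.9% with a core and 67.6% without, 70.9% and 74.3%, 79.1% and 73.8%, and 74.32% and 74.25%, so that the direction turned in the third. H3K27me3 showed no difference beyond the spread of the libraries, at 8.02%, 10.2%, 9.64% and 8.02% of core regions and 8.51%, 10.3%, 9.12% and 7.84% of the others (exact permutation p = 0.875), which does not show that the shares are equal. The 3 marks were also counted jointly, each only where its peak recurred across the 2 replicates. A region with a mark in a single replicate thus counted as lacking that mark. In WT 50.9% of core regions outside promoters had no such recurring mark, against 34.6% of the others. In Tcf4 cKO the shares were 40.4% and 29.2%.

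Tcf4 peaks lay on 37.8% and 16.2% of core regions and on 48.7% and 27.1% of the others, all outside promoters, a difference of -10.9 points in either library. The shares themselves differed between the 2 Tcf4 libraries as their peak numbers did. Within the quartiles of accessibility the mean shares were 12.4% with a core and 17.6% without in the least accessible, 28.0% and 36.3% in the next, 57.1% and 65.0% in the third, and 90.5% and 91.4% in the most accessible.

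**Figure D5:**
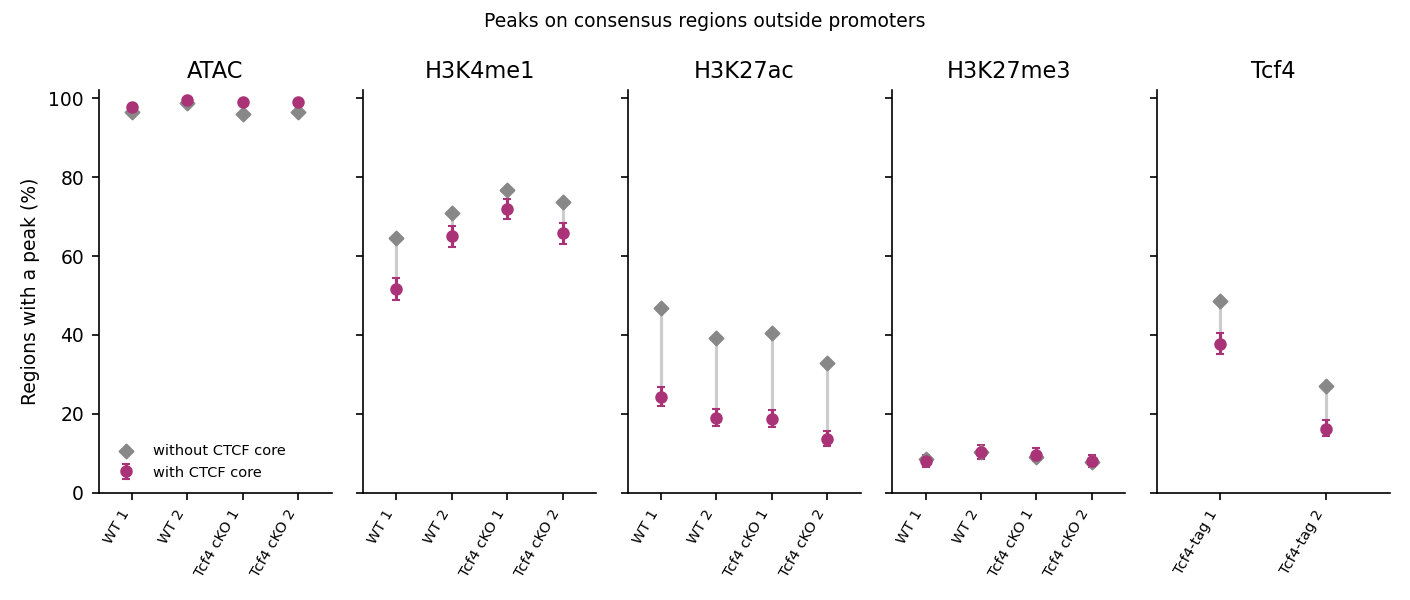
Percentage of consensus regions outside promoters with a peak (y axis) in each library (x axis), by assay, for regions with a CTCF core (circles with 95% Wilson intervals) and without (diamonds). For H3K27ac the circles lie between 13.5% and 24.3% and the diamonds between 32.8% and 46.9%, while for H3K27me3 they overlie each other.

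Between genotypes, neither mark gave a called change on core regions. For H3K27ac, limma tested 12688 regions with a peak in all 4 libraries, 275 of them with a core, and called 0 higher (0%) and 0 lower (0%). At an unadjusted p under 0.05 stood 833 of all and 17 of the core regions. The median log2 difference was -0.020 over the core regions and 0.001 over all. For H3K4me1 it tested 14029 regions, 580 with a core, and called 0 higher (0%) and 0 lower (0%), with 1035 and 58 at an unadjusted p under 0.05 and medians of 0.007 and -0.003. In simulated ATAC data the same fit recovered 3.5% of regions changed by 0.5 log2 and 98.5% of those changed by 1. No such check was run for the marks, so 0 calls do not show that they were unchanged.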

How the data were processed

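ATAC-seq and Cut&Tag peak lists of 18 libraries, a table of consensus ATAC regions and a footprint table were used. Single-cell RNA-seq was not used here. The authors trimmed reads with Trim Galore, aligned them to mm10 with Bowtie2, removed duplicates with SAMtools and ran MACS2 on every library separately. The deposited peak lists give, per peak, a fold enrichment over local background (a ratio) and −log10 p- and q-values. The sources used here name no control library for these enrichments. The deposited consensus table gives the authors' mean log2 normalized reads of each genotype, made with DiffBind, with no value per library. The deposited footprint table gives mean TOBIAS scores and numbers of sites called bound, from 1 merged alignment per genotype. Other deposited columns hold the authors' comparisons between genotypes (fold changes, p-values, FDR) and were not used. No file gives reads per library, so depth is known only as peak numbers.

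Here a region took the fold enrichment of its strongest overlapping peak in each library (at least 1 bp). Log2 values of regions with a peak in all 4 libraries were centred on each library's median and tested with limma 3.58.1 in R 4.3.3 (genotype only, two-sided, Benjamini-Hochberg, adjusted p under 0.05), after a check on simulated data. The CTCF core, 12 bases with 4 positions of free choice between a pair of letters, was searched on both strands of GRCm38. Accessibility was called past 0.5 log2 and footprint scores past 0.1 log2. Python 3.11.15, numpy 2.4.6, pandas 2.3.3, scipy 1.17.1, pysam 0.24.0 and matplotlib 3.10.9 were used. Replicate numbers did not pair the libraries (correlations of same-numbered deviations -0.00694, 0.0219 and 0.00924 for ATAC, H3K27ac and H3K4me1).

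The members and the gene lists were chosen with earlier results of these data known. Named were all CTCF and CTCFL rows, the Ctcf region, the 5 motifs with the highest WT score and the 3 nearest to MA0139.1, the 3 highest and 3 lowest promoters of the partner list, imprinted regions with a core, and the core regions with a named gene that had the 3 highest WT levels or the 5 highest or 5 lowest differences. Chromosome 18 was left out of the last group. Strata by class, accessibility and summit distance were added after the data were seen. A few items that these rules name are not reported here.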

Additional observations from a re-analysis of the deposited data

How the results depend on the processing

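The 3 CTCF and 2 CTCFL footprint rows kept their direction without centring (median log2 ratio 0.069) and by the numbers of sites called bound (0.112). The median accessibility difference of core regions, 0.08, was 0.18 when centred on all regions and turned to -0.02 with 1 mismatch allowed. By strata it was 0.13 outside promoters, -0.05 at promoters, 0.16 with a core near the summit, and 0.20, 0.11, -0.02 and -0.11 in rising quartiles of accessibility. Core regions past 0.5 numbered 250 upward and 27 downward when centred, 17 and 4 past 1, 539 and 395 with 1 mismatch, and 28 downward with the 14-base core. The core was in 21.6% of regions with 1 mismatch, 3.70% with 14 bases, 2.84% within 150 bp of the centre and 6.78% outside promoters.

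The 897 ATAC calls, 49 of them on core regions, became 0 and 0 without centring, 414 and 18 with quantile normalization, 554 and 2 without the filter on peaks, and 170 and 11 at a −log10 q of at least 5. With the replicate block they were 1474 and 81. The H3K27ac count stayed at 0 with the block and the H3K4me1 count was 1, none on a core region. Leaving out 1 library gave 0 to 1054 ATAC calls and 0 to 47 on core regions, with 0 and 0 without the first or the second WT library. It gave 0 to 2 for H3K27ac and 0 to 9 for H3K4me1, of which 0 to 4 were on core regions, with 9 and 4 without the second WT library. Without the filter on peaks H3K27ac gave 1406 calls and 57 on core regions, where a missing peak stands as no enrichment. The causes of the other changes were not tested.

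The shortfall of H3K27ac peaks on core regions, -21.0 points, was -9.18 at the stricter q, -14.6 with an overlap of at least 50% of the region, and -12.8, -24.6, -15.0 and -4.88 in rising quartiles. For Tcf4 the difference was -8.00 and -8.60 under the first 2 settings. The H3K27me3 difference, 0.0260 points, was -0.534 and -0.634 there. Leaving out 1 library gave 1.49 to 2.29 points for ATAC, -21.6 to -20.5 for H3K27ac, -9.02 to -6.27 for H3K4me1, -0.138 to 0.198 for H3K27me3 and -10.9 for Tcf4. The Ctcf promoter differences stayed within 1 standard error of 0.08 for ATAC and -0.05 for H3K27ac under all settings run. The files hold no read counts and the footprints no replicates, which limits what a small difference can show.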
